A study of Cricetiscus sungorus with 216 samples.

Results

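The hypothalamus sends a small set of peptides to the pituitary gland and the blood, and 4 of their genes are described here, Avp (arginine vasopressin), Oxt (oxytocin), Crh (corticotropin-releasing hormone) and Trh (thyrotropin-releasing hormone). They were chosen as the neuroendocrine peptides of the paraventricular nucleus (PVN), by gene symbol, out of 31956 symbols in the series. The table of the mediobasal hypothalamus (MBH) and that of the dorsomedial hypothalamus (DMH) each held all 4 members, among 20116 and 21804 symbols with a count. The PVN table held 18946 symbols with a count, and of the 4 members only Trh has a row in the PVN table used here. Avp, Oxt and Crh were therefore not analysed in the PVN. Levels were not compared between the PVN and the other tables.

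Adult male Djungarian hamsters were kept in a long photoperiod (LP, LD in the labels) or moved to a short photoperiod (SP, labelled SD), in which they were sampled after 4, 8, 12, 16, 20, 24, 28 and 32 weeks. Each of these 9 groups had 6 hamsters, and the MBH, PVN, DMH and pituitary gland of all 54 were sequenced as cDNA on the nanopore platform, in 216 libraries. The labels name no other treatment, and the brain regions were bilateral punches, which can take in neighbouring tissue. Libraries under 10000 counts were left out, which removed 1 LP library and 1 library of 16 weeks SP in the PVN, and 1 of 20 weeks SP in the MBH. The kept libraries held 22217 to 998245 counts in the PVN (n = 52), 71577 to 13208361 in the MBH (n = 53) and 149289 to 9084072 in the DMH (n = 54). A level is given in CPM, the count scaled to library size with TMM factors. The CPM that 1 count stands for depends on both the depth and the TMM factor of the library. In the DMH, 1 count of Avp was 1.48 CPM in a library of 2992210 counts (4 weeks SP). It was 0.128 CPM in a library of 992854 counts (12 weeks SP).

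Avp and Oxt are made by magnocellular neurons of the paraventricular and supraoptic nuclei, whose axons release both hormones from the posterior pituitary. Crh and Trh are made by parvocellular neurons of the PVN and reach the anterior pituitary through the portal vessels, where they drive the release of corticotropin and thyrotropin. The genes are also expressed elsewhere, Avp in the suprachiasmatic nucleus and Trh in several hypothalamic nuclei. Avp and Oxt are neighbouring genes with closely similar neurophysin sequence, and whether the counting kept their reads apart was not tested.

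Trh was read in 51 of the 52 PVN libraries, with 2015 counts in all, and its level did not pass the test over the photoperiod groups. In LP, the 5 libraries had 13.8, 74.7, 139, 140 and 197 CPM. After 8 weeks SP the lowest, median and highest of 6 libraries were 28.8, 229 and 257 CPM, and 4 of them lay above every LP library. After 20 weeks SP these values were 0, 208 and 454 CPM, and after 24 weeks SP 49.6, 97.9 and 256 CPM. The library at 0 CPM was replicate 4 of 20 weeks SP, which was also low for Penk (7.22 CPM), Sst (7.22 CPM) and Gal (0 CPM). Not every peptide gene was low there, since Cck was at 404 CPM, the highest level of the 20 weeks SP group.

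Libraries within a group varied more than the group means did. The mean was 113 ± 70.2 CPM in LP (SD, n = 5), lowest after 24 weeks SP at 111 ± 75.2 CPM and highest after 20 weeks at 207 ± 154 CPM (SD, n = 6 each). The 5 libraries of 16 weeks SP had 33.02, 40.005, 122, 207 and 284 CPM, and the lowest of these stood for 1 count and the next for 2. After 32 weeks SP, 1 library had 470 CPM, the highest level of all, and another had 6.88 CPM. The lowest, median and highest were 29.2, 144 and 310 CPM after 4 weeks, 30.1, 179 and 290 CPM after 12 weeks and 32.7, 151 and 222 CPM after 28 weeks SP. All 8 SP groups overlapped with LP. Means were above LP in 7 of the 8 SP groups and medians in 5 of 8. All were set against the same LP libraries, and the share of all PVN genes with such counts was not computed.

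**Figure D1:**
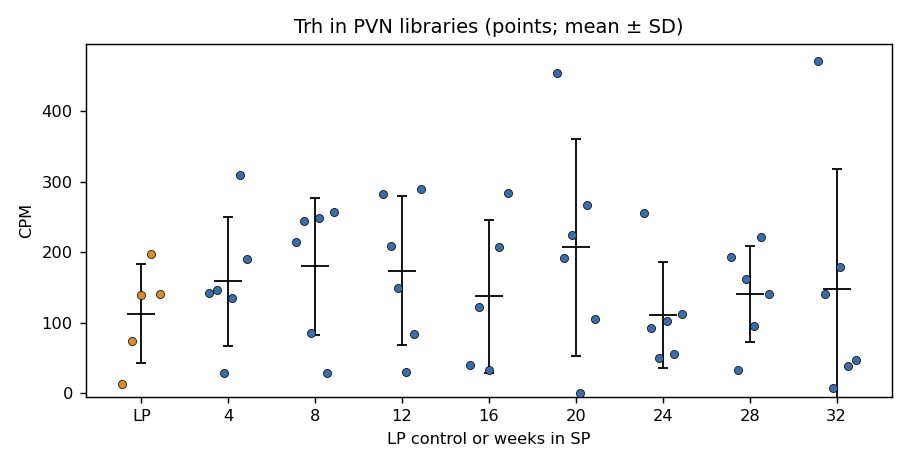
Trh in the PVN, in CPM, for LP (orange) and 4 to 32 weeks SP (blue), with 1 point per library and the mean ± SD as bars, cut at the axis where they pass below 0. The points of every SP group spread over the LP range of 13.8 to 197 CPM, and single libraries at 20 and 32 weeks reached 454 and 470 CPM.

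In the edgeR quasi-likelihood test, Trh in the PVN had an adjusted p of 1.00 over the 9 groups (unadjusted p = 0.816). The test called 0 of 18946 genes in the PVN at an FDR below 0.1, a background of 0%, with 1058 genes at an unadjusted p below 0.05, 32 called by the edgeR 4 method and 0 by DESeq2. Against LP, the log2 fold change of Trh was largest after 20 weeks SP at 0.99 (SE 0.62, adjusted p = 1.00) and smallest after 24 weeks at 0.11 (SE 0.63, adjusted p = 1.00). No gene of the PVN table was called at any single week, so the background of the weekly tests was 0% too. The mean of the 8 SP groups differed from LP by a log2 fold change of 0.57 (SE 0.51, adjusted p = 1.00), in a contrast that called 0.0158% of PVN genes. The exact permutation test of mean CPM gave p values from 0.223 at 8 weeks to 0.972 at 24 weeks SP, where the smallest p possible was 0.00216 for 6 against 5 libraries and 0.00794 for 5 against 5.

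Markers of the PVN itself were thinly read in these libraries. Otp, a homeobox factor that PVN neurons need, had counts in 35 of 52 libraries and Sim1, a factor of the same lineage, in 14 of 52, with 129 and 21 counts in all. Markers of neighbouring tissue were present as well. Pmch, the melanin-concentrating hormone gene of the lateral hypothalamus, was read in 43 of 52 libraries, and the summed level of Pmch and Hcrt went from 0 to 2321 CPM between libraries. The summed level of 4 thalamic markers, led by Tcf7l2, went from 33.02 to 12214 CPM. In tissue punches, fewer cells of a type and less RNA per cell cannot be told apart, and the part of punch content in the spread of Trh was not tested.

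Over the 52 PVN libraries, the levels most like Trh, among 10304 other genes with counts in at least 50% of libraries, were those of Ndn (Spearman rho 0.72), Lgals3bp (0.70) and Penk (0.69). Ndn is an imprinted gene of hypothalamic neurons and Penk encodes the enkephalin precursor. The peptide genes Gal (galanin) and Sst (somatostatin) came 12th and 13th, with rho of 0.65 each, while Otp had a rho of 0.29 and Cck, a peptide gene also strong in the thalamus, −0.45. Both libraries with the most Trh also had the highest Ndn and Penk levels. The correlation of Trh with the library total was 0.25. These values are descriptions over libraries that share sequencing depth and punch content.

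**Figure D2:**
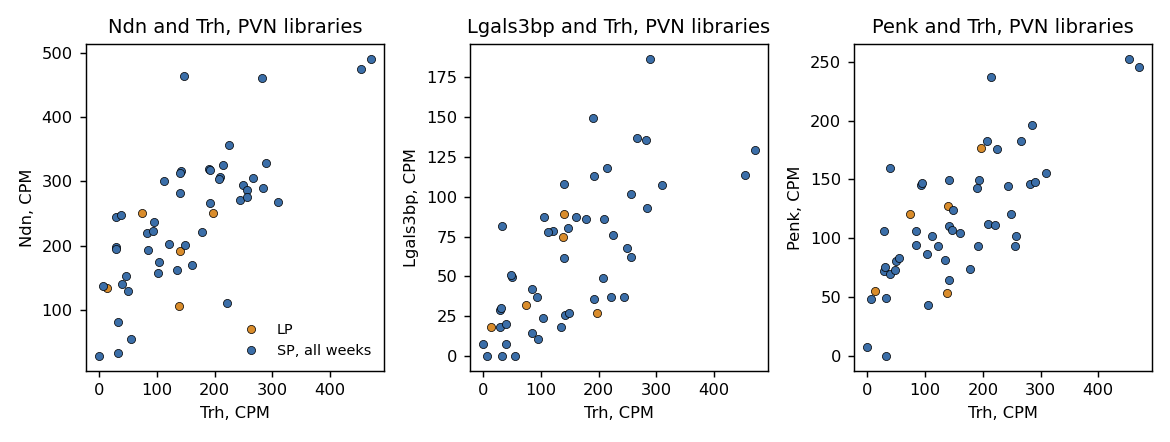
Levels of Ndn, Lgals3bp and Penk against Trh in the PVN, in CPM on linear axes, with 1 point per library (LP orange, SP blue, 52 libraries). Libraries with more Trh had more of each gene, with Spearman rho of 0.72, 0.70 and 0.69.

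In the MBH, Avp was read in 48, Oxt in 45, Trh in 44 and Crh in 5 of 53 libraries. Oxt passed the test over the groups (adjusted p = 0.0949, edgeR), whereas Avp (0.580), Trh (0.770) and Crh (1.00) did not. The test called 71 of 20116 genes, or 0.353%, so 1 of 4 members stands beside a background of 0.353%. The Oxt table entry has 2 isoforms with the same count in 43 of the 45 libraries in which it was read and a difference of at most 1 count in the others. The summed count of Oxt is therefore about double the count of either isoform in these libraries.

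The Oxt call in the MBH turned on 1 library. The 5 libraries of 20 weeks SP had 0, 7.29, 8.51, 59.6 and 239 CPM, and the highest of them held 350 of the 1162 Oxt counts in the MBH (30.1%). In LP the lowest, median and highest of 6 libraries were 0.245, 10.5 and 53.7 CPM, and in the 6 libraries of 8 weeks SP 0, 1.95 and 4.23 CPM. After 24 weeks SP they were 0, 1.75 and 21.7 CPM. The medians of the other SP groups lay between 3.90 CPM at 16 weeks and 6.15 CPM at 4 weeks. The groups of 20 weeks SP and LP overlapped, and 2 of the 5 libraries lay above every LP library. Without the library of 239 CPM, replicate 4 of 20 weeks SP, the adjusted p of Oxt was 0.823. The call was also lost after edgeR's filterByExpr (0.326), and without all libraries numbered 1, 2, 4 or 6 (0.194 to 1.00).

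At single weeks, Oxt was lowest in relation to LP after 8 weeks SP and highest after 20 weeks. The mean was 2.04 ± 1.91 CPM after 8 weeks against 16.7 ± 19.1 CPM in LP (SD, n = 6 each), and 5 of the 6 LP libraries lay above all 6 libraries of 8 weeks. The log2 fold change was −2.88 (SE 1.09) with an adjusted p of 0.781 in edgeR, while the exact permutation test of the means gave p = 0.0152. This was the 1 value below 0.05 among 32 comparisons of a member at a week in the MBH, and it was not adjusted over them. After 20 weeks SP the mean was 62.9 ± 101 CPM (SD, n = 5), with a log2 fold change of 1.92 (SE 0.96, adjusted p = 0.959) and an exact permutation p of 0.344. No member was called at any week in the MBH, where the weekly tests called 0.00684% of genes.

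Avp showed a similar picture in the MBH, with a few libraries far above the rest. In LP the lowest, median and highest levels were 1.22, 11.2 and 63.0 CPM, after 4 weeks SP 0.605, 4.68 and 96.2 CPM and after 16 weeks SP 0, 1.86 and 8.17 CPM. The 5 libraries of 20 weeks SP had 0, 1.89, 5.11, 14.3 and 89.3 CPM. In every week a library of the SP group lay within the LP range. Replicate 5 of LP held 155 of the 928 Avp counts in the MBH (16.7%), and replicate 1 of 20 weeks SP held 138. The 96.2 CPM, in replicate 1 of 4 weeks SP, stood for 50 counts in a library of 2779756. Its place above these libraries therefore rests on its TMM factor.

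All 8 SP medians of both Avp and Oxt lay below their LP medians. The means did so in 6 of 8 weeks for Avp and in 7 of 8 for Oxt. The 8 weeks were all set against the same LP libraries, so they are not separate comparisons. The share of all MBH genes with such counts was not computed. The mean of the 8 SP groups gave a log2 fold change from LP of −1.13 (SE 0.66, adjusted p = 0.776) for Avp and of −1.04 (SE 0.65, adjusted p = 0.856) for Oxt. That contrast called 0.746% of MBH genes. The largest weekly difference of Avp was at 16 weeks SP, with a log2 fold change of −2.39 (SE 1.05, adjusted p = 0.933) and an exact permutation p of 0.0758. The differences of the SP mean turned on replicate 5 of LP. Without that library the log2 fold change of the SP mean was −0.05 for Avp and −0.10 for Oxt. Without all libraries numbered 5 it was 0.19 for Avp and −0.20 for Oxt. The log2 fold change of Avp at 16 weeks SP stayed negative in all alternatives, at −3.26 to −1.13.

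**Figure D3:**
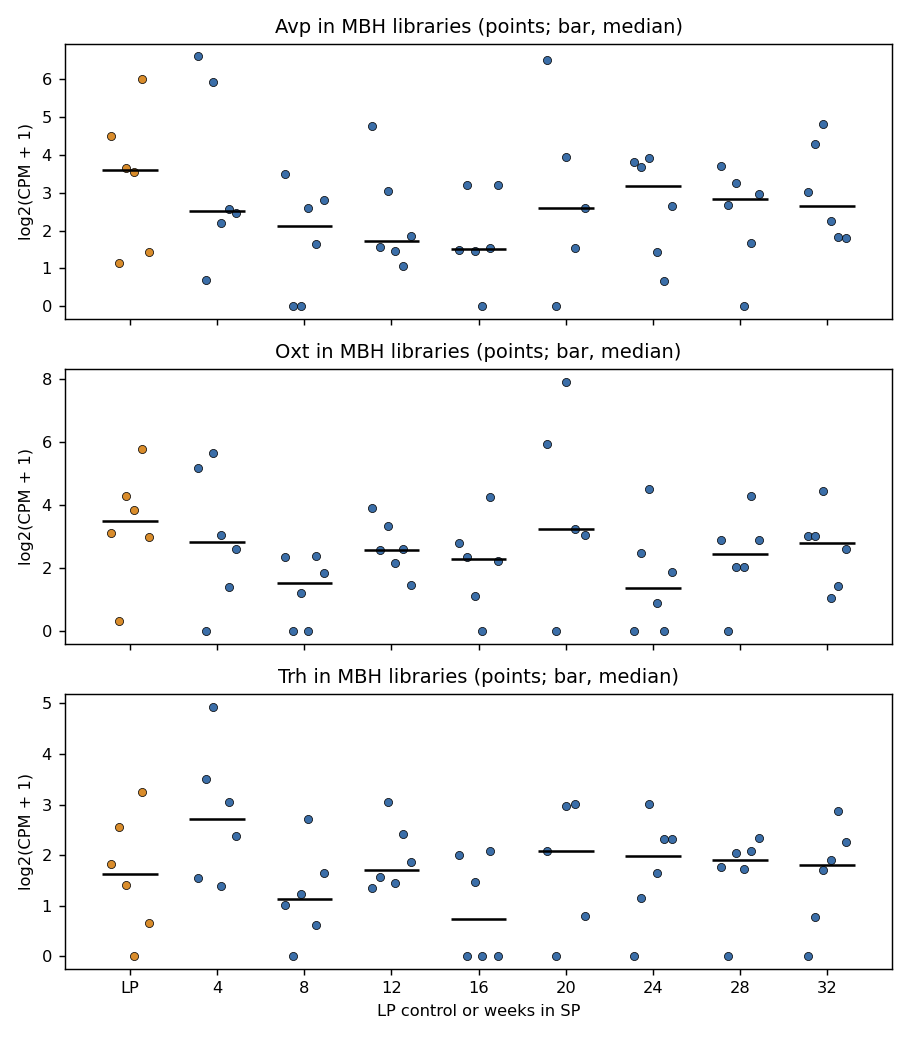
Avp, Oxt and Trh in the MBH as log2(CPM + 1), for LP (orange) and 4 to 32 weeks SP (blue), with 1 point per library and the median as a bar. The medians of Avp and Oxt were highest in LP, at 11.2 and 10.5 CPM, and single libraries at 4 and 20 weeks SP stood above the others.

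Avp and Oxt varied together from library to library in the MBH. Over 53 libraries their levels had a Spearman rho of 0.62, and each was the gene most like the other among 12037 genes with counts in at least 50% of libraries. On log2(CPM + 1) values the Pearson correlation was 0.68, and it was 0.68 again after the group means were taken out. The next most like Avp were Gatm (rho 0.54) and Irf3 (0.52), and the next most like Oxt were Gm2518 (0.55) and Tmcc1 (0.54). Otp had a rho of 0.24 with Oxt and 0.07 with Avp, and the library total had a rho of 0.10 with Oxt and −0.15 with Avp. The correlations describe libraries that share depth and punch content, and the similar sequence of both genes was not separated from them.

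The library with the most Oxt did not have the most Avp. Replicate 4 of 20 weeks SP was 1st of 53 libraries for Oxt, 9th for Avp with 14.3 CPM, and 1st for Sim1 with 2 counts. Replicate 1 of 20 weeks SP was 2nd for both, with 59.6 CPM of Oxt and 89.3 CPM of Avp, and replicate 5 of LP was 3rd for both, with 53.7 and 63.0 CPM. The PVN libraries of the same hamsters, which the labels identify by number, had 0, 454 and 197 CPM of Trh in the same order.

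**Figure D4:**
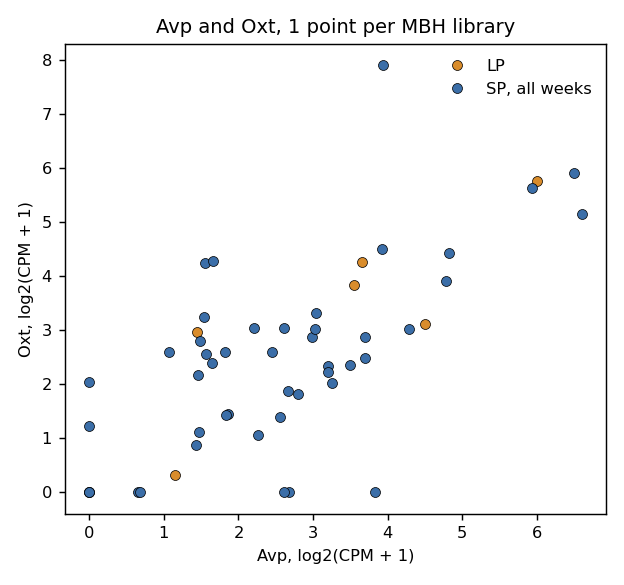
Oxt against Avp in the MBH, both as log2(CPM + 1), with 1 point per library (LP orange, SP blue, 53 libraries). The points rise together with a Spearman rho of 0.62, and the library with the most Oxt, at 239 CPM, had 14.3 CPM of Avp.

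Trh and Crh were not called in the MBH. Trh was 0 to 8.54 CPM in LP with a median of 2.11 CPM, and was highest after 4 weeks SP, where the lowest, median and highest were 1.60, 5.76 and 29.6 CPM and 2 of 6 libraries lay above every LP library. The log2 fold change at 4 weeks was 1.45 (SE 0.75, adjusted p = 0.977), with an exact permutation p of 0.171. Over all 8 SP groups it was −0.07 (SE 0.53, adjusted p = 1.00). The genes most like Trh were Zfp629 (rho 0.63), Ccdc78 (0.61) and Pipox (0.60), with 106 to 163 counts each, and Trh had a rho of 0.06 with Avp. Crh had 1 count in each of 5 libraries, 3 of them at 4 weeks, 1 at 16 weeks and 1 at 24 weeks SP, and no count in LP. At 0 counts, the LP libraries allow up to 0.272 CPM of Crh (3 counts over the group, counting error only), and the 3 counts at 4 weeks came to 0.218 CPM, so no difference of Crh was detectable at this depth.

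Pituitary markers moved with the photoperiod in the MBH libraries. Of 6 hormone genes of the anterior pituitary, 4 were called lower in the mean of the SP groups, and the median of their summed level was 1361 CPM in LP and 32.8 to 212 CPM in the SP groups. The 6 LP libraries went from 536 to 2109 CPM, and the highest SP library, of 28 weeks, reached 1573 CPM. The hormone genes included Tshb, which in the paper's model is low in the pars tuberalis in SP. Whether gene regulation or the amount of pituitary tissue in the punches underlay the lower levels was not tested. Lateral hypothalamic markers had no such order, with group medians of 2.44 to 46.5 CPM and 12.4 CPM in LP. Their part in the levels of Avp and Oxt was not tested.

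The members were rare in the DMH, and Oxt again passed the test over the groups. Avp was read in 13 of 54 libraries with 21 counts, Oxt in 12 with 357, Crh in 4 with 4 and Trh in 18 with 80. Oxt had an adjusted p of 0.0162 in edgeR, and Avp (1.00), Crh (0.940) and Trh (0.704) were not called. The background was high, since the test called 1010 of 21804 genes in the DMH, or 4.63%, and 34 were called by the edgeR 4 method and 1 by DESeq2. With the edgeR 4 method, Oxt had an adjusted p of 0.246. On simulated counts shaped like the DMH table, the test called more unchanged than changed genes, so its calls in the DMH may be inflated.

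Most Oxt counts of the DMH came from 2 libraries. Replicate 3 of 28 weeks SP had 208 counts (14.1 CPM) and replicate 2 of 24 weeks SP had 92 counts (3.10 CPM), together 84.0% of the total. Replicate 2 of 8 weeks SP had 24 counts at 11.7 CPM. The isoforms of Oxt held the same count in 7 of the 12 libraries and differed by at most 1 in the others. In LP 5 of 6 libraries had no Oxt and the other had 4 counts (0.43 CPM), and after 32 weeks SP all 6 had none, which allows up to 0.524 CPM. Every week had libraries at 0, so all groups overlapped with LP. Pooled over the libraries of a group, Oxt was 0.124 CPM in LP, 1.65 CPM after 8 weeks, 2.00 CPM after 24 weeks and 7.98 CPM after 28 weeks SP.

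**Figure D5:**
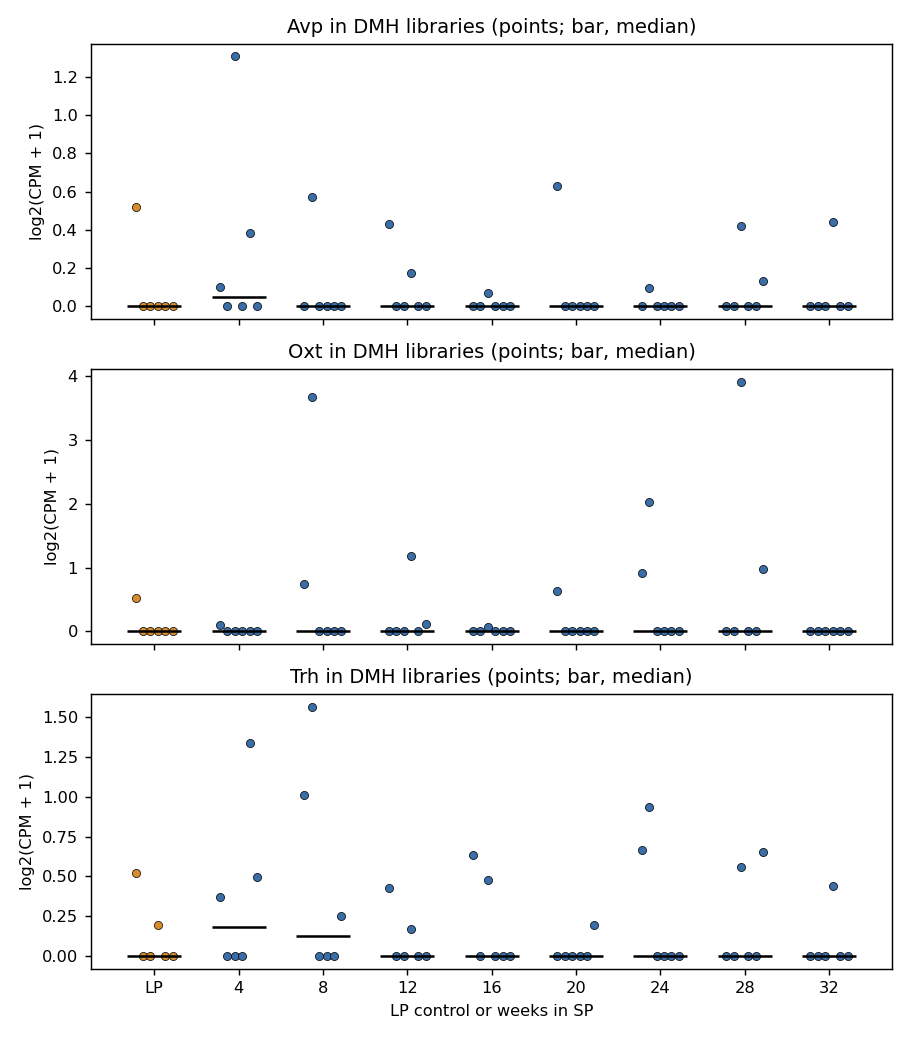
Avp, Oxt and Trh in the DMH as log2(CPM + 1), for LP (orange) and 4 to 32 weeks SP (blue), with 1 point per library and the median as a bar. Most points lie at 0, and Oxt stands out in 1 library at 8 weeks and 1 at 28 weeks SP, at 11.7 and 14.1 CPM.

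At 28 weeks SP, the log2 fold change of Oxt from LP was 4.52 (SE 1.29) with an adjusted p of 0.247, and the median over all DMH genes was −0.11. At 8 weeks it was 3.91 (SE 1.30, adjusted p = 0.234). The means were 2.51 ± 5.69 CPM after 28 weeks, 2.07 ± 4.75 CPM after 8 weeks, 0.663 ± 1.24 CPM after 24 weeks and 0.0724 ± 0.177 CPM in LP (SD, n = 6 each). The exact permutation test of the mean CPM gave p = 0.455 at 8, 24 and 28 weeks SP. No member was called at any week in the DMH, where the weekly tests called 0.00401% of genes. Over the 9 groups, the adjusted p of Oxt was 0.0546 without replicate 3 of 28 weeks SP and 0.0400 without both libraries with the most counts, but 0.158 without all libraries numbered 3.

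The libraries with the most Oxt in the DMH also ranked high for the lateral hypothalamic genes Pmch and Hcrt, but not all of them for Sim1 and Otp. All 6 DMH libraries in which Sim1 was read were among the 12 with Oxt, although Otp was read in only 5 of these 12. The part of sequencing depth in this joint detection was not tested. Of 54 libraries, those with the most Oxt at 28, 24 and 8 weeks SP ranked 5th, 1st and 2nd for Pmch, and 5th, 1st and 3rd for Hcrt, the orexin gene. They held 5, 2 and 1 counts of Avp and 7, 27 and 4 counts of Trh. Those of 28 and 24 weeks SP ranked 2nd and 3rd for Sim1 and 3rd and 5th for Otp. That of 8 weeks SP had 0 counts of both. The summed level of Pmch and Hcrt went from 0 to 111 CPM over all DMH libraries. Its part in the Oxt counts was not tested. In the MBH of the same hamsters, Oxt had 3.10 CPM, 4.58 CPM and 0 CPM, at ranks 35, 28 and 46 of 53.

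Trh in the DMH had 27 of its 80 counts in the same library of 24 weeks SP, at 0.909 CPM. Its highest level was 1.96 CPM after 8 weeks SP, and the mean went from 0.0244 ± 0.0598 CPM after 20 weeks to 0.527 ± 0.804 CPM after 8 weeks, with 0.0966 ± 0.176 CPM in LP (SD, n = 6 each). Crh had 1 count in 1 LP library, in 2 libraries of 4 weeks and in 1 of 16 weeks SP. Avp had at most 5 counts in any library.

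Other genes of the pathway came from a list of 39 symbols, of receptors and of binding or degrading proteins, related ligands, processing enzymes, lineage factors, co-transmitters and hormone receptors of PVN neurons. In the PVN 0 of 32 tested genes were called over the groups (background 0%), and in the MBH 0 of 37 (0.353%). In the DMH 2 of 35 were called, beside 4.63% of all genes. In the mean of the SP groups, 0 were called in the PVN and MBH, and in the DMH 2 of 35 were called lower and 0 higher, where 3.93% of all genes were called. The median log2 fold change of the list was 0.18, −0.09 and −0.46 in the PVN, MBH and DMH, and that over all genes 0.04, 0.01 and −0.28.

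The receptors were thinly read. In the PVN, Avpr1a and Oxtr, the main brain receptors of vasopressin and oxytocin, were read in 9 and 10 of 52 libraries, Trhr in 19 and Crhr2 in 3. In the MBH, Avpr1a was read in 22, Oxtr in 20, Crhr1 in 10, Crhr2 in 6, Avpr1b in 4 and Trhr in 38 of 53 libraries. Oxtr was highest after 28 weeks SP in the MBH, at 1.86 ± 1.60 CPM against 0.502 ± 0.977 CPM in LP (SD, n = 6 each), with counts in 5 of 6 libraries against 2 of 6. It did not pass the test over the groups (adjusted p = 0.292), and neither did Crhr1 (0.205) nor Sim1 (0.374), which had the smallest p beside it. In the PVN, the smallest p were those of Crhr2 (adjusted p = 0.797), Nos1 (1.00) and Cck (1.00).

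In the DMH, Thrb, a thyroid hormone receptor through which the hormone restrains Trh, had an adjusted p of 0.0324 and Crhr1, the main receptor of corticotropin-releasing hormone, 0.0629. Thrb was read in 19 of 54 libraries. It was highest after 4 weeks SP at 13.3 ± 24.4 CPM and lowest after 8 weeks at 0.0528 ± 0.129 CPM, with 2.87 ± 3.21 CPM in LP (SD, n = 6 each). The mean at 4 weeks rested on replicate 3 with 62.0 CPM, from 42 counts in a library of 2992210. The most counts in a library of that group were 63, so the level of replicate 3 depends on its TMM factor. The medians were 2.44 CPM at 4 weeks and 2.30 CPM in LP. Without replicate 3 the mean at 4 weeks was 3.56 ± 5.58 CPM (SD, n = 5) and the adjusted p 0.103. Crhr1 was read in 8 libraries, among them 2 of 6 in LP at 0.479 ± 0.919 CPM (SD), and had no count after 8, 12, 20 and 32 weeks SP. Crhr1 (adjusted p = 0.0107) and Vip (0.0112), the vasoactive intestinal peptide gene, were called lower in the mean of the SP groups. Vip was read in 3 of 6 LP libraries at 2.75 ± 3.76 CPM (SD) and in none after 20, 28 and 32 weeks SP. Both calls were lost without 1 LP library, that of Crhr1 without replicate 2 (adjusted p = 0.168) and that of Vip without replicate 1 (0.156), whereas the call of Crhr1 over the groups was kept (0.0704). Other receptors of the members were read in the DMH in 8 (Avpr1a and Oxtr), 2 (Crhr2) and 10 (Trhr) libraries.

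In the pituitary gland, where the released peptides act, Crhr1 passed the test over the groups (adjusted p = 0.0171). It was read in 13 of 54 libraries, had no count in the 6 LP libraries and was highest after 20 weeks SP at 27.2 ± 43.04 CPM (SD, n = 6), with 43 counts in all. At 20 weeks its 13 counts came from 3 libraries with a group median of 2.44 CPM, and without replicate 4 at 103 CPM the mean was 12.0 ± 24.2 CPM (SD, n = 5) and the adjusted p 0.0694. Avpr1b, the pituitary vasopressin receptor, was read in 6 libraries, 3 of them in LP, and Oxtr and Trhr in 1 each. Of the 39 symbols, 28 were tested and 4 called, among a background of 9.62% of all pituitary genes. The others called were Cck (adjusted p = 0.0737), Penk (0.0819) and Thrb (0.0968), with 11, 28 and 501 counts in all. The call of Thrb was lost without replicate 6 of 32 weeks SP (adjusted p = 0.193).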

How the data were processed

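The deposited values are expected counts per isoform, without normalization, in 1 table per tissue. By the paper's account they were estimated with Salmon from nanopore cDNA reads aligned with Minimap2 to the mouse genome (GRCm39). Trh in the PVN had another transcript identifier than Trh in the MBH. Whether the PVN counts rest on the same reference as the others was not tested. How far hamster reads unlike the mouse sequence went uncounted was not tested, and no source used here names the annotation release behind the symbols. The 4 members, the pathway and marker lists and the tests were chosen with earlier results of these data known. Counts were summed over the isoforms of a symbol and rounded, libraries under 10000 counts were left out, and 0 columns were left unmapped. All symbols with a count were fitted by tissue with the edgeR 4.0.16 quasi-likelihood test in its older form (R 4.3.3, TMM, BH-corrected FDR below 0.1), over the 9 groups, at each SP week against LP, and for the mean of the 8 SP groups. The fit uses the spread between hamsters of all groups. For each member and week, mean CPM was also tested by exact permutation (2-sided; Python 3.11.15, numpy 2.4.6), without adjustment over members. The spread behind n is that between hamsters, and replicate numbers name hamsters.

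Alternatives were DESeq2 1.42.0 size factors, filterByExpr, the edgeR 4 method, DESeq2, an FDR below 0.05, a block for the replicate number, the highest isoform of each gene, no minimum of 10000 counts, and each replicate number left out. Further libraries were left out after the data had been seen. Pathway genes are named if called over the groups, otherwise the 3 with the smallest p, besides the receptors of the members. For each member with counts in at least 50% of libraries, the 3 genes with the highest Spearman correlation are named. The fitting code was tested on simulated data, where it called more changed than unchanged genes in the PVN and MBH but more unchanged than changed genes in the sparse DMH table. Simulations of the pituitary table were not run. Floors cover counting error only (3 counts over a group).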

Additional observations from a re-analysis of the deposited data

Results flagged for a closer look

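Within a group, the highest library was set apart from the others by more than Dixon's 95% limit in 39 of 68 groups of members with any count. The limit, applied to CPM, was 0.625 for 6 libraries and 0.71 for 5. Chance flags about 1 in 20 for normally distributed values. These CPM are skewed and often rest on 1 count, so that rate does not apply to them. In 16 of the 39 flagged groups, 1 library was the only one with a count, which gives a ratio of 1.0 by itself. These were in the DMH for all 4 members and in the MBH for Crh. In the PVN, Trh stood out in replicate 1 of 24 weeks SP (ratio 0.699) and replicate 1 of 32 weeks SP (0.63). In the MBH, Avp stood out in LP replicate 5 (0.67) and in replicate 1 at 12 and 20 weeks SP (0.757 and 0.839). Oxt did in LP replicate 5 (0.662) and in replicate 5 of 16 weeks (0.668), 4 of 20 weeks (0.751), 3 of 24 weeks (0.789), 5 of 28 weeks (0.653) and 3 of 32 weeks SP (0.689), and Trh in replicate 3 of 4 weeks (0.69). In the DMH, the ratios of Avp were 0.793, 0.632 and 0.718 at 4, 12 and 28 weeks, those of Oxt 0.942, 0.933, 0.716 and 0.932 at 8, 12, 24 and 28 weeks, that of Crh 0.951 at 4 weeks, and those of Trh 0.666 in LP and 0.731 and 0.632 at 4 and 12 weeks SP.

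In the pituitary gland, a table outside the comparisons of the members, Avp had 14 counts in 11 of 54 libraries and Oxt 19 summed counts in 7. The most in a library were 2 counts of Avp and 6 of Oxt. The Oxt counts sum 2 isoforms that differed by at most 1 count in a library.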

How the results depend on the processing

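Counts of called genes over the 9 groups moved with nearly every setting, from 0 (PVN), 71 (MBH) and 1010 (DMH). In the PVN they were 3 with all libraries kept, 2 with DESeq2 size factors, 32 with edgeR 4 and 44 with the highest isoform. In the MBH they were 33 at an FDR below 0.05, 7 after filterByExpr, 14 with DESeq2 and 121 with the highest isoform. In the DMH they were 409, 9, 1 and 32 in that order, and 34 with edgeR 4. Calls summed over the weeks, 0 in the PVN, 11 in the MBH and 7 in the DMH, became 1 (edgeR 4) and 18 (highest isoform) in the PVN, 19 (edgeR 4), 28 (DESeq2) and 284 (highest isoform) in the MBH, and in the DMH 1 at an FDR below 0.05, 2 with DESeq2 size factors, 0 after filterByExpr, 2 with edgeR 4, 1 with DESeq2 and 11 with the highest isoform. Calls in the mean of the SP groups, 3 in the PVN, 150 in the MBH and 856 in the DMH, became 0 (filterByExpr and DESeq2) and 6 (highest isoform) in the PVN. In the MBH they became 81 at an FDR below 0.05, 8 after filterByExpr, 60 with edgeR 4 and 7 with DESeq2, and in the DMH 523, 37, 147 and 0 in that order, and 174 with the highest isoform.

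Of the members, Oxt in the MBH (adjusted p = 0.0949) was not called at an FDR below 0.05 (0.0949) or after filterByExpr (0.326), and Oxt in the DMH (0.0162) was not called with edgeR 4 (0.246). With the highest isoform, Avp (2.91e-31) and Trh (2.48e-04) were called in the MBH besides Oxt (1.14e-55), although Avp and Trh have 1 isoform each, and the cause was not tested. The p of Oxt in the DMH was NA in DESeq2, and Oxt could not be fitted there after filterByExpr, which removed it.

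The replicate numbers were not taken to pair the libraries, since the labels give them no shared origin and the correlation of same-numbered libraries went down to −0.19, −0.14 and −0.58 in the PVN, MBH and DMH (mean r of 0.05 in each). As a hint of a shared effect, 25 of 52, 30 of 53 and 24 of 54 libraries correlated best with their own number among 6. With a replicate block, the calls over the groups were 28, 18 and 227 in the PVN, MBH and DMH, those over the weeks 6 in the PVN, and those in the mean of the SP groups 12 in the MBH and 422 in the DMH. Oxt in the MBH had an adjusted p of 0.828 with the block, and no other call of a member changed.

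Without each replicate number in turn, the calls over the groups were 1 to 5 in the PVN, 7 to 26 in the MBH and 122 to 814 in the DMH, those over the weeks 0 to 0, 6 to 11 and 0 to 4, and those in the mean of the SP groups 1 to 9, 71 to 125 and 488 to 1252. The permutation tests below 0.05 were 0 to 1 in the PVN, 0 to 2 in the MBH and 0 to 0 in the DMH. The adjusted p of Oxt was 0.0622 to 1.00 in the MBH and 0.0112 to 0.158 in the DMH. In the MBH, the SP mean log2 fold change was −1.67 to 0.19 for Avp and −0.38 to 0.42 for Trh.

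In alternatives chosen after seeing the data, the calls over the groups were 56 without replicate 4 of 20 weeks SP and 66 without LP replicate 5 in the MBH, and 1261 without replicate 2 of 24 weeks SP in the DMH, where Oxt had an adjusted p of 0.00785. Without replicate 4 of 20 weeks SP in the MBH, 151 genes were called in the mean of the SP groups and the adjusted p of Oxt was 0.823, and the SP mean of Trh turned to 0.50 without LP replicate 5. In the DMH, the calls over the weeks were 3 without replicate 2 of 24 weeks SP, and those in the mean of the SP groups 1302 without it and replicate 3 of 28 weeks SP. Of the called pathway genes, each without its highest library, Thrb (0.103), and in the SP mean Crhr1 (0.168) and Vip (0.156), were lost in the DMH and Thrb (0.193) in the pituitary gland. Crh in both tables and Avp and Trh in the DMH rest on fewer than 100 counts over all libraries, which leaves little precision.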

Other observations

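Over the 51 hamsters with both libraries, the levels of Trh in the PVN and in the MBH had a Spearman rho of −0.11, given as a description. In the DMH, Avp, Oxt and Trh were often read in the same libraries: Oxt and Avp were both read in 9, Oxt and Trh in 10 and Avp and Trh in 11 of 54 libraries. The deepest DMH library, of 9084072 counts, was among those with counts of Avp, Oxt and Trh. The part of depth in this joint detection was not tested.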
